A study of Mus musculus with 40 samples.

Results

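The genes described here encode the organic ion and drug transporters of the kidney and the aorta: the Slc22a carriers, the organic anion transporting polypeptides (Slco), the MATE antiporters (Slc47a) and the B, C and G subfamilies of the ATP-binding cassette (ABC) proteins. They were chosen by symbol and biotype, as protein-coding genes named Slc22a, Slco, Slc47a, Abcb, Abcc or Abcg with a number, and by a mean of at least 0.5 CPM (counts per 1e6 of the library total) over the libraries of a tissue. No measured difference between groups entered this rule, although it was set with earlier results of these data known. Of 67 genes with such names, 44 reached this level in kidneys and 29 in aortas, and 27 did so in both. All of them passed the expression filter, among 15943 genes tested in kidneys and 15122 in aortas. A further 13 genes in kidneys and 21 in aortas had counts below this level, and 10 and 17 were at 0 in every library.

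Organic anions and cations, many of them drugs, toxins and waste products of metabolism, are taken from blood into proximal tubule cells by carriers of the Slc22a family on the basolateral side. They leave into the tubular lumen through MATE antiporters, which exchange them for protons, and through ABC pumps, which use ATP. Other Slc22a carriers on the luminal side bring urate and carnitine back. Slco carriers move bile acids, steroid conjugates, thyroid hormones and prostaglandins, and some ABC proteins have other tasks, among them the sulfonylurea receptors that are regulatory subunits of potassium channels.

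RNA was sequenced from kidneys and aortas of mice, with 5 libraries for each tissue, genotype and diet and 40 in all. In EC-EGFR-KO mice, floxed Egfr was deleted by Cre recombinase under the Tie2 (Tek) promoter, which is active in endothelial cells, while control mice (WT) carried the same Cre transgene but no loxP sites. The mice were C57BL/6 and received a standard diet (SFD, written SD in the labels, 10% of energy from fat) or a high fat diet (HFD, 60%) over 18 weeks, starting when they were 6 weeks old. The Tie2 promoter is also active in blood cell lineages, and the sources used here do not name the sex of the mice or the hour of collection. The comparisons ask what the diet and endothelial EGFR do to transporter mRNA in each tissue and whether the effect of the diet differs between genotypes.

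Total counts per library ranged from 19643033 to 48833447 in kidneys and from 17520161 to 36452741 in aortas. Libraries are named here by their labels, a1 to a20 for kidneys and R-1 to R-20 for aortas. One pair of libraries in each tissue differed by less than the sampling noise: the KO HFD kidney a1 and the WT HFD kidney a12, with a median chi-square over genes of 0.0253, and the WT SFD aorta R-1 and the KO SFD aorta R-12, with 0.0263. The next closest pairs had medians of 1.59 and 1.57. The libraries of the pairs below the sampling noise, called near-identical here, also had the highest total counts of their tissue. These were 48788716 in a1, 48833447 in a12, 36419598 in R-1 and 36452741 in R-12. Each near-identical pair joins WT with KO, so the genotypes are not 5 fully separate libraries against 5. Levels are given in FPM, which is CPM on the TMM-normalized library size. Egfr, the targeted gene, was at 56.3 ± 5.81 FPM in WT and 53.1 ± 4.33 FPM in KO kidneys under SFD (SD, n = 5) and at 40.5 ± 11.3 and 42.3 ± 10.4 FPM under HFD. In aortas it was at 39.6 ± 8.93 FPM in WT and 44.0 ± 5.70 FPM in KO under SFD and at 40.5 ± 6.36 and 44.5 ± 6.58 FPM under HFD. Other cells of both organs also express Egfr, and the deleted part is exon 1, so whole-gene counts say little about the deletion in endothelial cells. Proximal tubule markers summed to between 12717 and 17028 FPM in kidneys and smooth muscle markers to between 26975 and 42674 FPM in aortas. The table holds 0 for all genes on chromosome 9, which include Slc22a13, Slc22a14, Slco2a1 and Abcg4, and these could not be tested.

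Per length of transcript, the most abundant transporter mRNA of the kidney was Slc22a12, which encodes the luminal urate carrier URAT1, with 644 FPM per kb of exon (range 424 to 947). Other abundant genes were Slc22a18, an imprinted gene of the family, with 312 FPM per kb of exon (range 215 to 469), and Slc22a6 (OAT1, basolateral uptake of organic anions), with 255 FPM per kb of exon (range 185 to 375). The single MATE gene above the threshold, Slc47a1, was at 229 FPM per kb of exon (range 197 to 259.6). The range of Slc22a12 over the 20 kidneys lay above those of Slc22a6 and Slc47a1 and overlapped that of Slc22a18, and the ranges of the other 3 overlapped each other. The ABC pumps with the highest level per length were Abcg2, which exports urate and many drugs at the luminal membrane, with 61.1 FPM per kb of exon (range 49.9 to 69.0), and the luminal conjugate pump Abcc2, with 43.2 FPM per kb of exon (range 33.0 to 53.4). Both P-glycoprotein genes were low, Abcb1b with 2.62 FPM per kb of exon (range 0.952 to 5.20) and Abcb1a with 1.82 FPM per kb of exon (range 0.805 to 3.19).

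The aorta had another set. Its most abundant member was Abcc9, the sulfonylurea receptor SUR2 of the ATP-sensitive potassium channel of smooth muscle, with 48.03 FPM per kb of exon (range 27.2 to 90.3). The carnitine carrier gene Slc22a5 was at 11.1 FPM per kb of exon (range 9.22 to 12.6). The conjugate and nucleotide pumps Abcc5 and Abcc1 were at 10.2 FPM per kb of exon (range 6.60 to 13.6) and 8.96 FPM per kb of exon (range 7.54 to 10.9). Among the genes that were at 0 in every aorta were Slc22a6, Slc22a8, Slc22a28, Slc22a30 and Slco1a1. Of the 27 genes counted in both tissues, every aorta lay above every kidney in FPM for 6 (Abcb9, Abcc1, Abcc5, Abcc9, Slc22a15 and Slc22a3) and below every kidney for 12. The tissues were normalized in separate tables, so these levels are set side by side without a test.

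**Figure D1:**
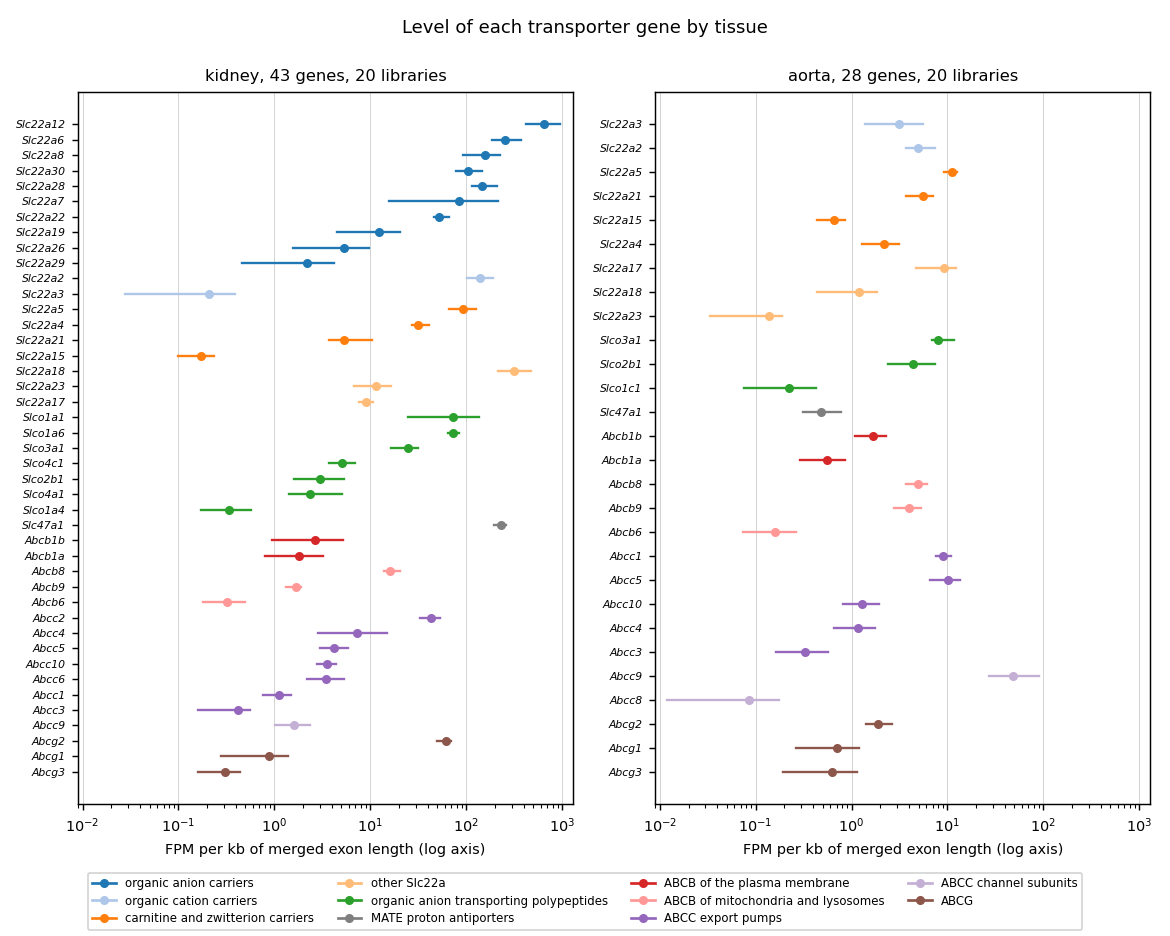
Level of each transporter gene in FPM per kb of merged exon length (horizontal log axis), kidneys on the left and aortas on the right. Points are means over 20 libraries, lines run from the lowest to the highest library and colours mark the role of the gene; organic anion carriers lead in the kidney and Abcc9 in the aorta.

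HFD changed transporters of the Slc22a, Slco and ABC families in the kidney. In WT kidneys 17 of the 44 genes passed an adjusted p of 0.05, 5 higher and 12 lower under HFD, where 6.71% of all genes tested passed (3.03% higher and 3.68% lower). In KO kidneys 14 passed, 4 higher and 10 lower, where 6.34% of all genes passed (3.16% higher and 3.18% lower). Averaged over both genotypes, 22 passed, 8 higher and 14 lower, where 16.4% of all genes passed (7.7% higher and 8.7% lower). These tests are edgeR's quasi-likelihood tests on counts with Benjamini-Hochberg adjustment over all genes tested, and the same tests stand behind each adjusted p below. The median log2 fold change of the 44 genes was -0.04 in the averaged comparison and that of all genes 0.00, while the median size of the change, without its sign, was 0.30 against 0.14. A fold change over 1.5 and a level over 5 FPM in at least 1 group, which the study also required, left 9 genes in WT, 8 in KO and 9 in the average, where 2.18%, 2.16% and 2.92% of all genes passed. In that average 5 of the 9 were higher, as were 1.7% of all genes, and 4 lower, as were 1.22% of all genes. At an unadjusted p under 0.05, 27 of the 44 and 29.9% of all genes passed in the average. The WT libraries of the diets did not overlap for 16 of the 44 genes and 6.64% of all genes, the KO libraries for 17 and 7.81%, and all 10 HFD and 10 SFD kidneys for 11 and 2.84%. Kidneys a1 and a12, the near-identical pair, are both HFD kidneys, so the average counts them as separate libraries. Without that pair 20 of the 44 genes passed in the average, 7 higher and 13 lower, where 14.7% of all genes passed. In KO, 9 genes (3 higher, 6 lower) remained past the adjusted p without the 3 SFD kidneys a8, a9 and a17, which were high in immediate-early genes. The 5 KO calls lost were Slc22a2 (-0.38, adjusted p = 0.0971 in edgeR), Slc22a6 (-0.33), Slc22a7 (-1.45), Slc22a3 (1.25) and Abcc9 (-0.67), and in WT the call of Slc22a8 was lost (0.45).

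The summed counts of the transporters made up between 0.906% and 1.017% of all counts in the 10 SFD kidneys and between 0.780% and 0.840% in the 10 HFD kidneys, so that the diets did not overlap. By role, HFD lowered 7 and raised 2 of 10 organic anion carriers in the average, lowered 4 and raised 0 of 7 organic anion transporting polypeptides, and raised both P-glycoprotein genes. None of 4 carnitine and zwitterion carriers, of 3 ABCB proteins of mitochondria and lysosomes or the MATE gene passed the test. Of all genes tested, 8.7% fell and 7.7% rose in the average. In bulk tissue, fewer cells of a type and less RNA per cell cannot be told apart.

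**Figure D2:**
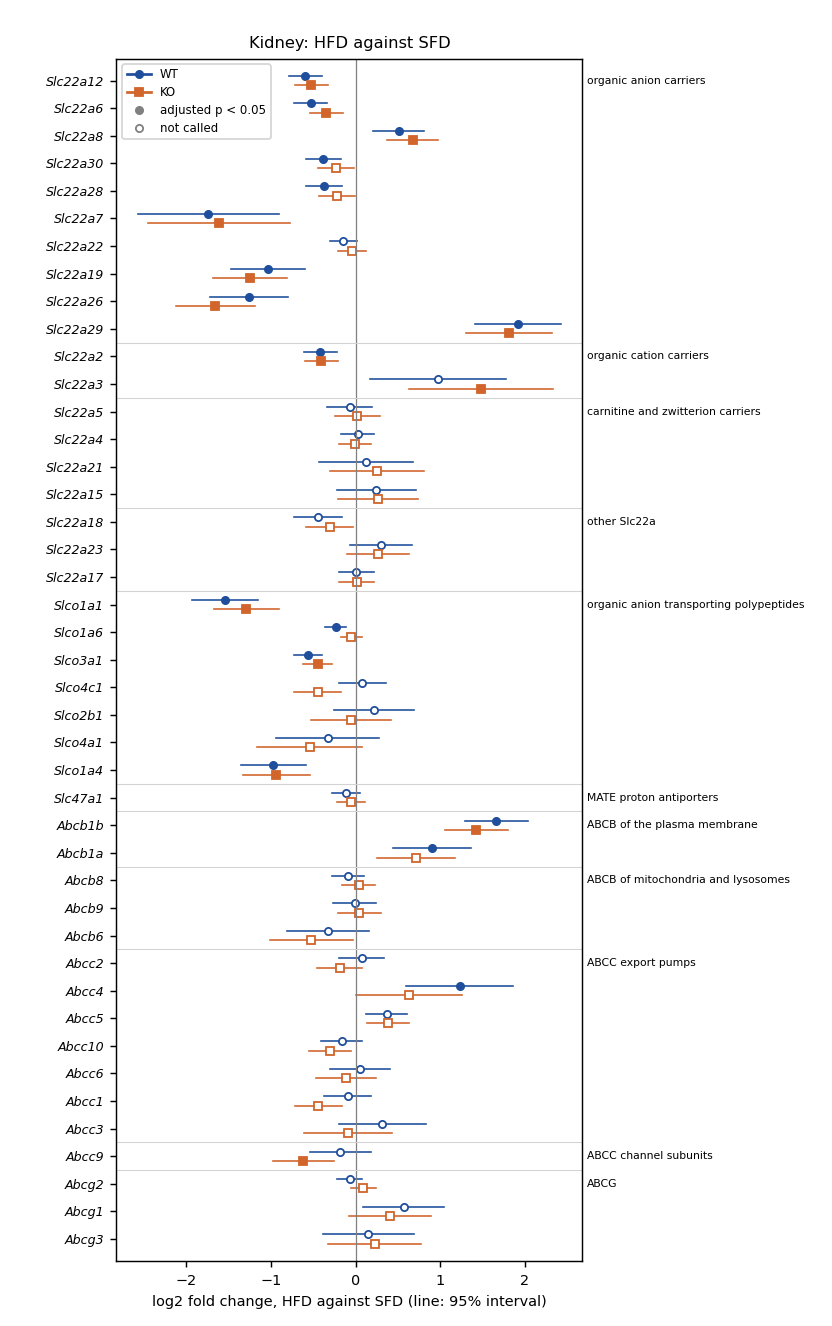
Log2 fold change of HFD against SFD (horizontal axis) for 43 kidney genes, ordered by role and then by level; blue circles are WT, orange squares KO, lines 95% intervals and filled symbols an adjusted p under 0.05. Slc22a29 lies farthest to the right, with Abcb1b and, in KO, Slc22a3 next to it, and Slc22a7, Slc22a26 and Slco1a1 lie farthest to the left in both genotypes.

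Among the organic anion carriers, the abundant Slc22a12 and Slc22a6 fell. The WT values of Slc22a12 were 1498, 1746, 2142, 1506 and 1580.0 FPM under SFD and 959.5, 1274, 1179, 1067 and 1125 FPM under HFD. The KO values were 1719, 1861, 1704, 1785 and 1831 FPM under SFD and 1272, 1211, 1112, 1283 and 1303 FPM under HFD. All HFD kidneys lay below all SFD kidneys, with a change of -0.60 on the log2 scale in WT (standard error 0.09, edgeR adjusted p = 0.000434) and -0.53 in KO (standard error 0.09, adjusted p = 0.00118). Slc22a6 counted 1168, 1192, 1494, 1072 and 1169 FPM in WT SFD kidneys and 839.9, 992, 835, 738 and 809 FPM in WT HFD kidneys. It counted 1007, 1184, 1120.0, 1124 and 1146 FPM in KO SFD kidneys and 994, 851, 854, 779 and 915 FPM in KO HFD kidneys. The diets did not overlap here either, with the change at -0.53 on the log2 scale in WT (standard error 0.09, edgeR adjusted p = 0.00115) and -0.35 in KO (standard error 0.09, adjusted p = 0.0282). The call in KO was lost when any one of a2, a3, a4, a7, a8, a9 or a10 was left out, with values between -0.39 and -0.30. Without the expression filter this KO call was also lost. Reads were not stated to be counted by strand, and 30.1% of the exon length of Slc22a12 overlaps exons of Nrxn2 on the opposite strand.

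Slc22a8 (OAT3), which takes up many of the same organic anions on the basolateral side, went the other way. SFD kidneys of WT mice had 645, 417, 646, 413 and 376 FPM of Slc22a8 and HFD kidneys 799, 763, 661, 648 and 682 FPM. SFD kidneys of KO mice had 500.0, 511, 532, 364 and 462 FPM and HFD kidneys 765, 883, 711, 751 and 674 FPM. Each HFD kidney lay above each SFD kidney, if narrowly in WT, where 2 SFD kidneys reached 645 and 646 FPM. The change was 0.51 on the log2 scale in WT (standard error 0.14, edgeR adjusted p = 0.0356) and 0.68 in KO (standard error 0.14, adjusted p = 0.00536). In WT the call was lost without any one of a11, a12, a13, a14, a15, a17, a19 or a20, with values between 0.42 and 0.63, and also without the near-identical pair, with a value of 0.48. With the compared groups alone this WT call was lost too.

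Slc22a6 and Slc22a8 are neighbours on chromosome 19 (Slc22a8 from 8591254 to 8611835 and Slc22a6 from 8618039 to 8628299, both on the plus strand in GRCm38 by GENCODE M21), 6203 bases apart, and their levels moved in opposite directions under HFD. The 250 bases before their RefSeq starts are shown with the CCAAT box, the GC box GGGCGG and the TATA box TATAAA in capitals, each as found on either strand. Beside them stand the windows of Abcb1b and Slco1a1, the ABC pump and the Slco carrier with the smallest adjusted p, marked in the same way. All are from GRCm38.p6 and written 5′ to 3′ along the gene. The bases just after the start used for Slc22a6 were not found in a GENCODE M21 transcript of that gene, while those of the other 3 were. Their position in the transcript was not checked, and the start used for Slc22a8 lies inside the gene as given above.
Slc22a8, chr19:8592932-8593181, plus strand: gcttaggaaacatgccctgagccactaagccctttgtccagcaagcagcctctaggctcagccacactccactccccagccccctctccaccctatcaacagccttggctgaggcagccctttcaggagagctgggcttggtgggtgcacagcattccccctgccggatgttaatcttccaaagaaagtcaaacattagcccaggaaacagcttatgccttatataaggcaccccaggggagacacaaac
Slc22a6, chr19:8617746-8617995, plus strand: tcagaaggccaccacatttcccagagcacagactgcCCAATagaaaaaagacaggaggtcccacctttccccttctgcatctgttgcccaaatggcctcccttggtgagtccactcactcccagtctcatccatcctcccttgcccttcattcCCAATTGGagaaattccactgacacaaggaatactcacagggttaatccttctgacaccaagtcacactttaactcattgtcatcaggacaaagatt
Abcb1b, chr5:8797897-8798146, plus strand: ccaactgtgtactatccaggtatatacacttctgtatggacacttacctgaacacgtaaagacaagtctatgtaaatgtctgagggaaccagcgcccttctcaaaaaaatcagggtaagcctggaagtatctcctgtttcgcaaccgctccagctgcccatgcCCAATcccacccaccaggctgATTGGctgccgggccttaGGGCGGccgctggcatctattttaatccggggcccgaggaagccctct
Slco1a1, chr6:141946963-141947212, minus strand: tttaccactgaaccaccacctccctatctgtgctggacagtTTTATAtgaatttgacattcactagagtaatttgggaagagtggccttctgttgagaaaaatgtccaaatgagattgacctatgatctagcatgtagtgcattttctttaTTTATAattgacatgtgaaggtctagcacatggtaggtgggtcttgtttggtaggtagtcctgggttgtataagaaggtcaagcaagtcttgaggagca
None of these motifs was in the window of Slc22a8, and CCAAT was in that of Slc22a6. Windows, 42 in all, were found for 34 of the 44 genes, among 32851 windows of all genes. CCAAT was present in 6 of 12 windows of genes that fell, in 2 of 8 of genes that rose, in 18.2% of those of genes not called, in 28.6% of the windows of the 44 genes and in 33.8% of all windows. GGGCGG was present in 16.7% of the windows of genes that fell, in 25% of those of genes that rose, in 59.1% of those of genes not called, in 40.5% of the windows of the 44 genes and in 32.7% of all windows, and TATAAA in 7.14% and 12.4%. These matches describe letters in short windows, and no factor's binding was measured.

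Slc22a7 (OAT2), another organic anion carrier, also fell. In WT kidneys, Slc22a7 was at 198, 229, 447, 222 and 251 FPM under SFD and at 32.8, 136, 92.9, 58.0 and 82.7 FPM under HFD. In KO kidneys it was at 208, 299, 222, 406 and 225 FPM under SFD and at 136, 46.2, 83.8, 37.9 and 139.9 FPM under HFD. No HFD kidney reached the lowest SFD kidney, although the spread within each group was wide, and the change was -1.74 on the log2 scale in WT (standard error 0.40, edgeR adjusted p = 0.0113) and -1.62 in KO (standard error 0.40, adjusted p = 0.0178). In KO the call was lost without a9 alone, with values between -1.84 and -1.41 over all single libraries left out, and without the 3 kidneys high in immediate-early genes. That KO call was also lost without the expression filter and with the compared groups alone. Slc22a19, a carrier of steroid sulfates, fell too. The WT values of Slc22a19 were 96.9, 82.1, 88.4, 87.2 and 97.01 FPM under SFD and 24.7, 43.5, 44.5, 43.8 and 63.6 FPM under HFD. The KO values were 88.3, 104, 81.7, 112 and 77.3 FPM under SFD and 43.6, 31.8, 33.8, 26.5 and 59.3 FPM under HFD. The highest HFD value stayed below the lowest SFD value in both genotypes, with a change of -1.04 on the log2 scale in WT (standard error 0.21, edgeR adjusted p = 0.0039) and -1.25 in KO (standard error 0.21, adjusted p = 0.000819).

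A row of related genes lies beside Slc22a8 on chromosome 19, and its members did not move as one. Slc22a26 fell. Slc22a26 counted 28.5, 20.9, 20.7, 24.5 and 26.8 FPM in WT SFD kidneys and 6.74, 7.03, 8.93, 13.8 and 14.2 FPM in WT HFD kidneys. It counted 24.3, 26.3, 18.9, 20.1 and 16.9 FPM in KO SFD kidneys and 7.06, 4.65, 7.26, 4.95 and 9.78 FPM in KO HFD kidneys. The diets were separate in both genotypes, with changes of -1.26 on the log2 scale in WT (standard error 0.22, edgeR adjusted p = 0.00113) and -1.66 in KO (standard error 0.23, adjusted p = 8.54e-05). Slc22a29 rose from a low level. SFD kidneys of WT mice had 2.70, 1.20, 1.05, 1.98 and 2.98 FPM of Slc22a29 and HFD kidneys 6.57, 8.04, 4.77, 8.69 and 9.59 FPM. SFD kidneys of KO mice had 2.03, 2.81, 2.70, 1.76 and 2.24 FPM and HFD kidneys 7.86, 9.36, 7.75, 8.23 and 7.54 FPM. All HFD kidneys were above all SFD kidneys, with a change of 1.92 on the log2 scale in WT (standard error 0.25, edgeR adjusted p = 4.83e-05) and 1.82 in KO (standard error 0.24, adjusted p = 7.58e-05). The pair Slc22a28 and Slc22a30 were abundant and fell slightly, past the threshold in WT and in the average but not in KO: Slc22a28 with -0.37 on the log2 scale (standard error 0.10, edgeR adjusted p = 0.0303) and Slc22a30 with -0.38 on the log2 scale (standard error 0.10, edgeR adjusted p = 0.022). In the average Slc22a28 was at -0.30 on the log2 scale (standard error 0.07, edgeR adjusted p = 0.00659) and Slc22a30 at -0.31 on the log2 scale (standard error 0.07, edgeR adjusted p = 0.0043), and each kept this call in 26 of 27 alternatives, all but the fold and level limits. The WT calls were lost without any one of a13, a14, a19 or a20 in both genes, and for Slc22a28 also without a11 or a15, with values between -0.43 and -0.27 for Slc22a28 and between -0.43 and -0.32 for Slc22a30. The WT call of Slc22a28 was also lost without the expression filter and with the compared groups alone. Of the 100-base stretches of their exons, 37.0% of Slc22a28 and 21.1% of Slc22a30 are found in another gene, mostly each other, so counts of this pair are uncertain. For Slc22a29 this share was 7.51%, mostly Slc22a27, and for Slc22a26 0.558%. Slc22a22, the last of the 10 and a prostaglandin carrier, did not pass the test, with values of -0.15 in WT and -0.04 in KO.

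**Figure D3:**
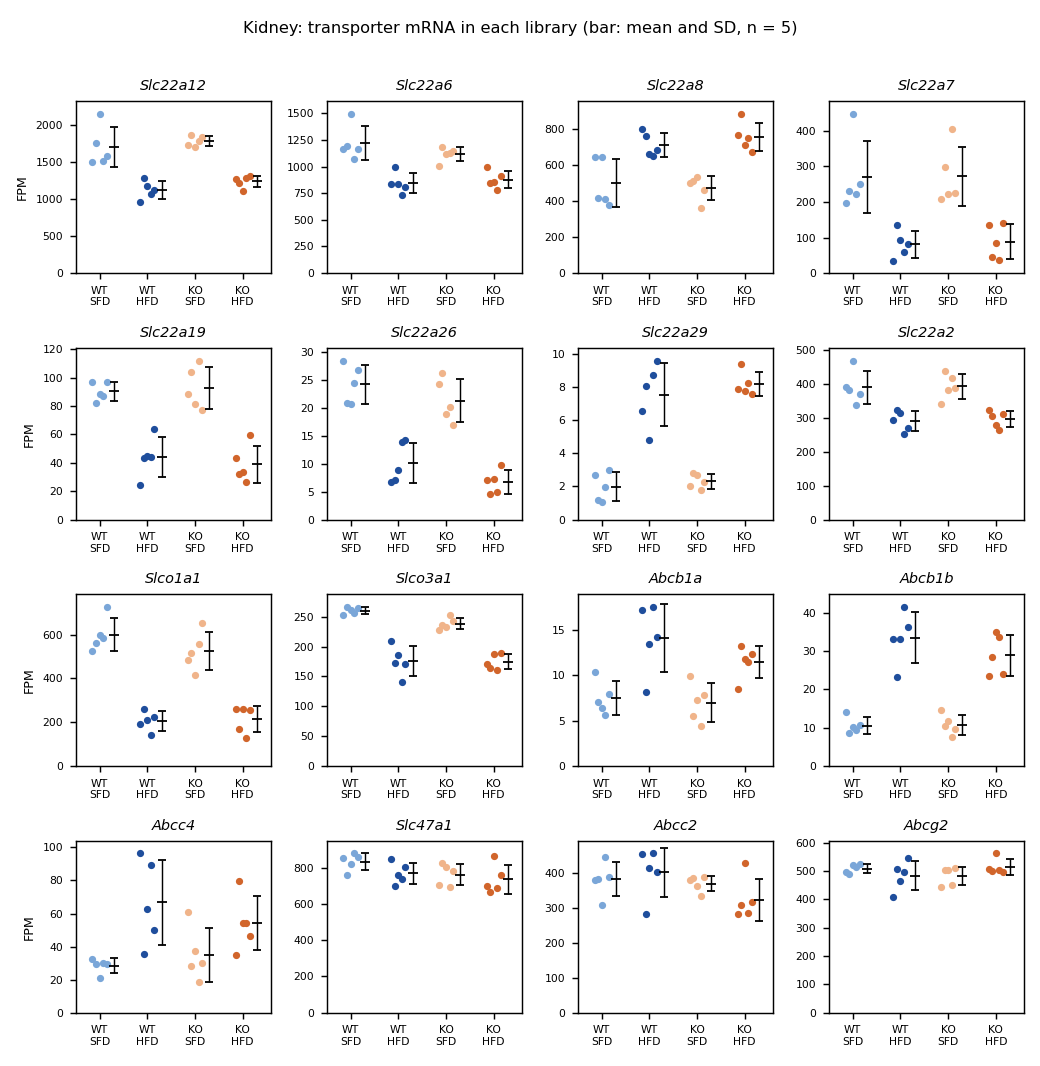
FPM (vertical axes, from 0) of 16 transporter genes in each of the 20 kidneys, with points for libraries and bars for the mean and SD of the 5 libraries of each group. The first 8 panels hold genes whose diets do not overlap, Slc22a8 and Slc22a29 being higher under HFD. Of the other panels, the diets also do not overlap for Slco1a1, Slco3a1 and Abcb1b, of which Abcb1b is higher under HFD. They overlap for Slc47a1, Abcc2 and Abcg2.

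Of the organic cation carriers, which bring positively charged drugs and monoamines into the cell, Slc22a2 (OCT2) fell. In WT kidneys, Slc22a2 was at 389.6, 382, 468, 338 and 369 FPM under SFD and at 294, 324, 314, 252 and 270.1 FPM under HFD. In KO kidneys it was at 339, 436, 383, 418 and 386 FPM under SFD and at 323, 306, 278, 264 and 311 FPM under HFD. Every HFD kidney was below every SFD kidney of its genotype, and the change was -0.42 on the log2 scale in WT (standard error 0.09, edgeR adjusted p = 0.00777) and -0.41 in KO (standard error 0.09, adjusted p = 0.00973). With the compared groups alone the WT call was lost. Slc22a3 (OCT3) was scarce. The WT values of Slc22a3 were 0.932, 0.859, 0.219, 1.14 and 0.331 FPM under SFD and 1.56, 1.03, 1.69, 1.70 and 0.959 FPM under HFD. The KO values were 0.557, 0.371, 0.512, 0.126 and 0.628 FPM under SFD and 1.03, 1.24, 1.36, 1.75 and 0.759 FPM under HFD. The groups overlapped in WT and were separate in KO, with changes of 0.97 on the log2 scale in WT (standard error 0.38, edgeR adjusted p = 0.155) and 1.48 in KO (standard error 0.41, adjusted p = 0.0331), and these values rest on 3 to 49 counts per library. The KO call was lost without any one of a2, a3, a4, a7, a8 or a9, with values between 1.24 and 1.65. In the average Slc22a3 was at 1.23 on the log2 scale (standard error 0.28, edgeR adjusted p = 0.0043), with values between 1.11 and 1.35 and the call kept in 26 of 27 alternatives, all but the fold and level limits. The luminal partner of these carriers, Slc47a1 (MATE1), did not pass the test, at a log2 fold change of -0.12 in WT and -0.05 in KO (standard errors 0.08 and 0.08, edgeR adjusted p = 0.453 and 0.778), and its values overlapped between diets.

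The carnitine carriers Slc22a5 and Slc22a4 were at a log2 fold change of -0.07 in WT and 0.02 in KO (standard errors 0.13 and 0.13, edgeR adjusted p = 0.822 and 0.963) and a log2 fold change of 0.02 in WT and -0.01 in KO (standard errors 0.09 and 0.09, edgeR adjusted p = 0.928 and 0.97), respectively, and neither passed the test. The same held for Slc22a21, a carnitine carrier gene that shares 10.6% of its 100-base stretches with Slc22a5, and for Slc22a15. Of the remaining family members, Slc22a18 passed the test in the average only, at -0.37 on the log2 scale (standard error 0.10, edgeR adjusted p = 0.00994). Without the near-identical pair it passed in WT as well, at -0.54 with an adjusted p of 0.0189. Slc22a23 and Slc22a17 did not pass.

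The organic anion transporting polypeptides fell where they passed the test. Slco1a1, a carrier of steroid conjugates and bile acids, had the smallest adjusted p. Slco1a1 counted 526.3, 564, 597, 585 and 726 FPM in WT SFD kidneys and 194, 261, 212, 139.8 and 224 FPM in WT HFD kidneys. It counted 483, 516, 416, 559 and 653 FPM in KO SFD kidneys and 261, 169, 259, 129.5 and 254 FPM in KO HFD kidneys. The HFD values lay far below the SFD values in both genotypes, with a change of -1.54 on the log2 scale in WT (standard error 0.19, edgeR adjusted p = 3.16e-05) and -1.29 in KO (standard error 0.19, adjusted p = 0.000173). Slco3a1, a carrier of prostaglandins, fell in both genotypes. SFD kidneys of WT mice had 253, 266, 261, 256 and 264 FPM of Slco3a1 and HFD kidneys 209.8, 172, 186, 141 and 171 FPM. SFD kidneys of KO mice had 228, 237, 232, 252 and 243 FPM and HFD kidneys 171, 164, 188, 162 and 189 FPM. No HFD kidney reached an SFD kidney of its genotype, with changes of -0.56 on the log2 scale in WT (standard error 0.08, edgeR adjusted p = 0.00016) and -0.45 in KO (standard error 0.08, adjusted p = 0.00118).

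Slco1a4, the neighbour of Slco1a1 on chromosome 6, fell from a low level. In WT kidneys, Slco1a4 was at 2.36, 3.48, 3.28, 2.85 and 3.39 FPM under SFD and at 1.56, 1.20, 1.69, 1.59 and 1.80 FPM under HFD. In KO kidneys it was at 2.69, 1.77, 2.47, 2.52 and 3.68 FPM under SFD and at 1.20, 1.45, 1.62, 1.49 and 1.09 FPM under HFD. Within each genotype the diets did not overlap, and the change was -0.97 on the log2 scale in WT (standard error 0.19, edgeR adjusted p = 0.00239) and -0.94 in KO (standard error 0.19, adjusted p = 0.00343). Slco1a6, abundant in the kidney, passed the test in WT at -0.23 on the log2 scale (standard error 0.06, edgeR adjusted p = 0.0205) but not in KO, where it was at -0.05 on the log2 scale (standard error 0.06, edgeR adjusted p = 0.699). Its WT call was lost without any one of a13, a14, a15, a16 or a18, with values between -0.26 and -0.21. That call was also lost without the expression filter and with the compared groups alone. Slco4c1, a basolateral carrier of digoxin and thyroid hormone, was at a log2 fold change of 0.08 in WT and -0.45 in KO (standard errors 0.13 and 0.13, edgeR adjusted p = 0.799 and 0.0503) and did not pass in either genotype. Without the near-identical pair it was called in KO, at -0.40 with an adjusted p of 0.0384, but not in WT, at 0.19. Slco2b1 and Slco4a1 did not pass either.

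Both genes of P-glycoprotein, the luminal efflux pump for many drugs, rose under HFD in the average of the genotypes, although Abcb1a did not pass the test in KO alone. The WT values of Abcb1b were 14.1, 8.50, 10.3, 9.39 and 10.7 FPM under SFD and 33.3, 23.4, 33.3, 41.5 and 36.3 FPM under HFD. The KO values were 14.5, 10.4, 11.6, 7.60 and 9.78 FPM under SFD and 23.4, 28.4, 35.1, 33.6 and 24.1 FPM under HFD. The HFD kidneys all lay above the SFD kidneys, with a change of 1.66 on the log2 scale in WT (standard error 0.18, edgeR adjusted p = 6.32e-06) and 1.42 in KO (standard error 0.18, adjusted p = 3.72e-05). Abcb1a counted 10.4, 7.04, 6.38, 5.67 and 7.94 FPM in WT SFD kidneys and 17.1, 8.15, 13.4, 17.5 and 14.1 FPM in WT HFD kidneys. It counted 9.93, 5.53, 7.22, 4.41 and 7.81 FPM in KO SFD kidneys and 8.47, 13.2, 11.8, 11.4 and 12.3 FPM in KO HFD kidneys. Here 1 WT HFD kidney, a12, and 1 KO HFD kidney, a1, which are the near-identical pair, lay within the range of the SFD kidneys. The change of Abcb1a was 0.91 on the log2 scale in WT (standard error 0.22, edgeR adjusted p = 0.0144) and 0.71 in KO (standard error 0.22, adjusted p = 0.0612). Without the near-identical pair Abcb1a passed in both genotypes, at 1.05 in WT (adjusted p = 0.00215) and 0.81 in KO (adjusted p = 0.0171). The genes are 49571 bases apart on chromosome 5 and share 9.23% (Abcb1a) and 6.04% (Abcb1b) of their 100-base stretches with each other, so that a small part of their reads may not be told apart.

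Among the ABCC export pumps, Abcc4, which exports urate and cyclic nucleotides at the luminal membrane, rose in WT. SFD kidneys of WT mice had 32.5, 29.5, 21.0, 30.1 and 29.1 FPM of Abcc4 and HFD kidneys 96.4, 35.3, 63.0, 89.3 and 49.8 FPM. SFD kidneys of KO mice had 61.1, 28.1, 37.0, 18.3 and 29.8 FPM and HFD kidneys 35.2, 79.8, 54.2, 54.5 and 46.6 FPM. The WT groups did not overlap and the KO groups did, with changes of 1.23 on the log2 scale in WT (standard error 0.30, edgeR adjusted p = 0.0171) and 0.63 in KO (standard error 0.30, adjusted p = 0.251). Its WT call was lost without any one of a11, a14 or a18, with values between 1.06 and 1.39. In the average Abcc4 was at 0.93 on the log2 scale (standard error 0.21, edgeR adjusted p = 0.0049), and this call was kept in all 27 alternatives. Abcc5, a pump for cyclic nucleotides, passed the test in the average only, at 0.38 on the log2 scale (standard error 0.08, edgeR adjusted p = 0.00317), and without the near-identical pair in WT as well, at 0.42 with an adjusted p of 0.0373. The abundant Abcc2 was at a log2 fold change of 0.07 in WT and -0.19 in KO (standard errors 0.13 and 0.13, edgeR adjusted p = 0.804 and 0.443), and Abcc1, Abcc3, Abcc6 and Abcc10 also did not pass.

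Abcc9, the channel subunit, was not an export pump but passed the test in KO, where it fell. In WT kidneys, Abcc9 was at 18.2, 16.5, 11.3, 14.04 and 15.6 FPM under SFD and at 17.01, 8.49, 11.6, 17.5 and 12.3 FPM under HFD. In KO kidneys it was at 19.6, 13.8, 15.7, 12.6 and 13.5 FPM under SFD and at 8.55, 9.46, 9.98, 10.1 and 10.8 FPM under HFD. The groups overlapped in WT and not in KO, with changes of -0.18 on the log2 scale in WT (standard error 0.17, edgeR adjusted p = 0.612) and -0.62 in KO (standard error 0.17, adjusted p = 0.0356). The KO call was lost without any one of a1, a2, a3, a4, a6 or a8, with values between -0.68 and -0.51. Of the ABCG genes, Abcg1, which exports cholesterol, passed in the average only, at 0.49 on the log2 scale (standard error 0.16, edgeR adjusted p = 0.0453), and the call was lost in 14 of 20 fits that left out 1 library, with values between 0.40 and 0.59. The abundant Abcg2 was at a log2 fold change of -0.07 in WT and 0.09 in KO (standard errors 0.07 and 0.07, edgeR adjusted p = 0.64 and 0.527). Abcb8 and Abcb9, which sit in mitochondria and lysosomes, did not pass the test. Of the exon length of Abcb6, 55.2% overlaps Gm29253 on the same strand, and its counts are uncertain.

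Of the 44 genes 12 passed the test in both genotypes, which is 70.6% of the WT calls and 85.7% of the KO calls, all with the same sign. Over all genes tested, 652 passed in both, which is 61.0% of the WT calls and 64.5% of the KO calls. The genes that passed in WT only were Abcb1a, Slco1a6, Abcc4, Slc22a28 and Slc22a30, and those in KO only were Abcc9 and Slc22a3. Apart from Abcb1a in WT, each of these 7 genes lost that call without 1 or another single library. With the near-identical pair left out, WT gave 18 calls and KO 16, of which 12 were in both, 66.7% and 75% of the calls, where 551 of all genes were, 50.5% and 62.6%. Those 12 hold Abcb1a in place of Slc22a8. The genes called in WT only were then Slco1a6, Slc22a18, Abcc4, Abcc5, Slc22a28 and Slc22a30, and those in KO only Slco4c1, Abcc9, Slc22a3 and Slc22a8, so that membership of both lists moves with the pair. The difference of the diet effects between genotypes was itself tested, and 0 of the 44 genes passed an adjusted p of 0.05 in edgeR, where 0% of all genes did and 2 of the 44, and 1.79% of all genes, had an unadjusted p under 0.05. The smallest was for Slco4c1, at -0.53 on the log2 scale (standard error 0.19, unadjusted p = 0.0112, edgeR adjusted p = 1.00), and without the near-identical pair it was at -0.60 with an adjusted p of 0.960. In that gene the KO HFD kidneys were at 18.0, 20.4, 18.5, 22.2 and 23.5 FPM and the WT HFD kidneys at 29.5, 18.1, 23.7, 34.0 and 29.3 FPM.

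Other genes of the transport pathway were counted beside the carriers. Of 12 tested regulators of transporter genes, 1 rose and 2 fell in the averaged comparison, with a list median of -0.04. Of all genes tested, 7.7% rose and 8.7% fell in that comparison. Nr1i2 (PXR), a drug-sensing nuclear receptor, was at 0.75 (standard error 0.12, edgeR adjusted p = 0.000176). Nr1h2 (LXR-beta), a sterol receptor, was at -0.25 (standard error 0.06, edgeR adjusted p = 0.00911). Hnf4a, a nuclear receptor of the proximal tubule, did not pass, at -0.13 (standard error 0.06, edgeR adjusted p = 0.116).

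Among 4 scaffold proteins that hold luminal carriers in place, Slc9a3r2 was at 0.25 (standard error 0.07, edgeR adjusted p = 0.0217) and Slc9a3r1 (NHERF1) at -0.27 (standard error 0.08, edgeR adjusted p = 0.0317), while Pdzk1, which binds URAT1, did not pass, at -0.08 (standard error 0.06, edgeR adjusted p = 0.387). Of 17 partner carriers tested, 1 rose and 5 fell, with a list median of 0.04, where 7.7% of all genes rose and 8.7% fell. Those that fell were the urate and phosphate carrier genes Slc17a1, at -0.23 (standard error 0.06, edgeR adjusted p = 0.0135), and Slc17a3, at -0.26 (standard error 0.05, edgeR adjusted p = 0.00171), the bile acid carrier gene Slc10a2, at -0.61 (standard error 0.18, edgeR adjusted p = 0.0247), the thiamine carrier gene Slc19a2, at -0.54 (standard error 0.08, edgeR adjusted p = 6.57e-05), and the nucleoside carrier gene Slc28a1, at -0.30 (standard error 0.10, edgeR adjusted p = 0.0411). The other thiamine carrier gene, Slc19a3, rose, at 0.35 (standard error 0.09, edgeR adjusted p = 0.00832). Slc13a3, which supplies the dicarboxylates that OAT1 and OAT3 exchange, was at 0.15 (standard error 0.09, edgeR adjusted p = 0.274) and did not pass.

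Several gene lists moved with the diet in the same kidneys, where 7.7% of all genes tested rose and 8.7% fell in the average. Of 9 renal genes with higher expression in males, 6 fell and 0 rose in the average (median -0.69, with Slc7a13 also among the proximal tubule markers), and their summed level ran from 28670 to 53000 FPM in WT SFD and from 32589 to 39400 FPM in KO SFD, against 17494 to 26247 FPM in WT HFD and 20832 to 28297 FPM in KO HFD. All 3 female-biased genes rose (median 2.46). Of 9 proximal tubule markers, 2 rose and 3 fell (median -0.10), with 12950 to 17028 FPM over the SFD kidneys and 12717 to 14359 FPM over the HFD kidneys. Of 11 immediate-early genes, 8 fell and 0 rose (median -2.99), with sums up to 2306 FPM under SFD and up to 172 FPM under HFD. The high SFD sums were in a8, a9 and a17, and the medians of the groups were 101 FPM in WT SFD, 104 in KO SFD, 116 in WT HFD and 111 in KO HFD. The 4 macrophage markers summed to between 58.7 and 88.4 FPM over all kidneys, with 3 higher and 1 lower. The 4 hepatocyte markers, of which 1 rose, summed to between 171 and 330 FPM over the SFD kidneys and between 466.2 and 955 FPM over the HFD kidneys. Of 13 clock genes, 0 passed the test in edgeR. The part of these lists in the transporter results was not tested, except that adding a score of the clock genes to the fit left 17 calls in WT, 15 in KO and 21 in the average.

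KO of endothelial EGFR was compared with WT under each diet. In kidneys 0 of the 44 genes passed an adjusted p of 0.05 in edgeR under SFD, under HFD or in the average of the diets, where 0% of all genes did. An unadjusted p under 0.05 was reached by 1, 4 and 1 of the 44, and by 2.67%, 3.42% and 4.82% of all genes. The smallest was for Slco1a6 under SFD, at -0.14 on the log2 scale (standard error 0.06, unadjusted p = 0.035, edgeR adjusted p = 1.00), for Slco4c1 under HFD, at -0.39 on the log2 scale (standard error 0.13, unadjusted p = 0.00809, edgeR adjusted p = 0.814), and for Slc22a26 in the average, at -0.39 on the log2 scale (standard error 0.15, unadjusted p = 0.0214, edgeR adjusted p = 0.802). Also under HFD, Abcc9 was at -0.45 on the log2 scale (standard error 0.17, unadjusted p = 0.017, edgeR adjusted p = 0.814) and Abcc2 at -0.31 on the log2 scale (standard error 0.13, unadjusted p = 0.0246, edgeR adjusted p = 0.814). Slco3a1 was the only gene whose WT and KO libraries did not overlap under SFD, as was the case for 0.464% of all genes, at -0.13 on the log2 scale (standard error 0.08, unadjusted p = 0.133, edgeR adjusted p = 1.00).

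Under SFD, 43 of 44 intervals lay within a log2 fold change of 1 in either direction, and 43 of 44 did under HFD. These intervals give the sizes of change that the data leave possible for each gene if all libraries are separate. Under HFD the near-identical kidneys a1 (KO) and a12 (WT) stand on opposite sides of the comparison. Without that pair Slco4c1 was at -0.46, Slc22a26 at -0.71 and Abcc9 at -0.53 under HFD (edgeR adjusted p = 0.491 each). For Slc22a12 the interval of KO against WT ran from -0.03 to 0.24 in the average of the diets, for Slc22a6 from -0.17 to 0.10 and for Abcb1b from -0.35 to 0.16.

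**Figure D4:**
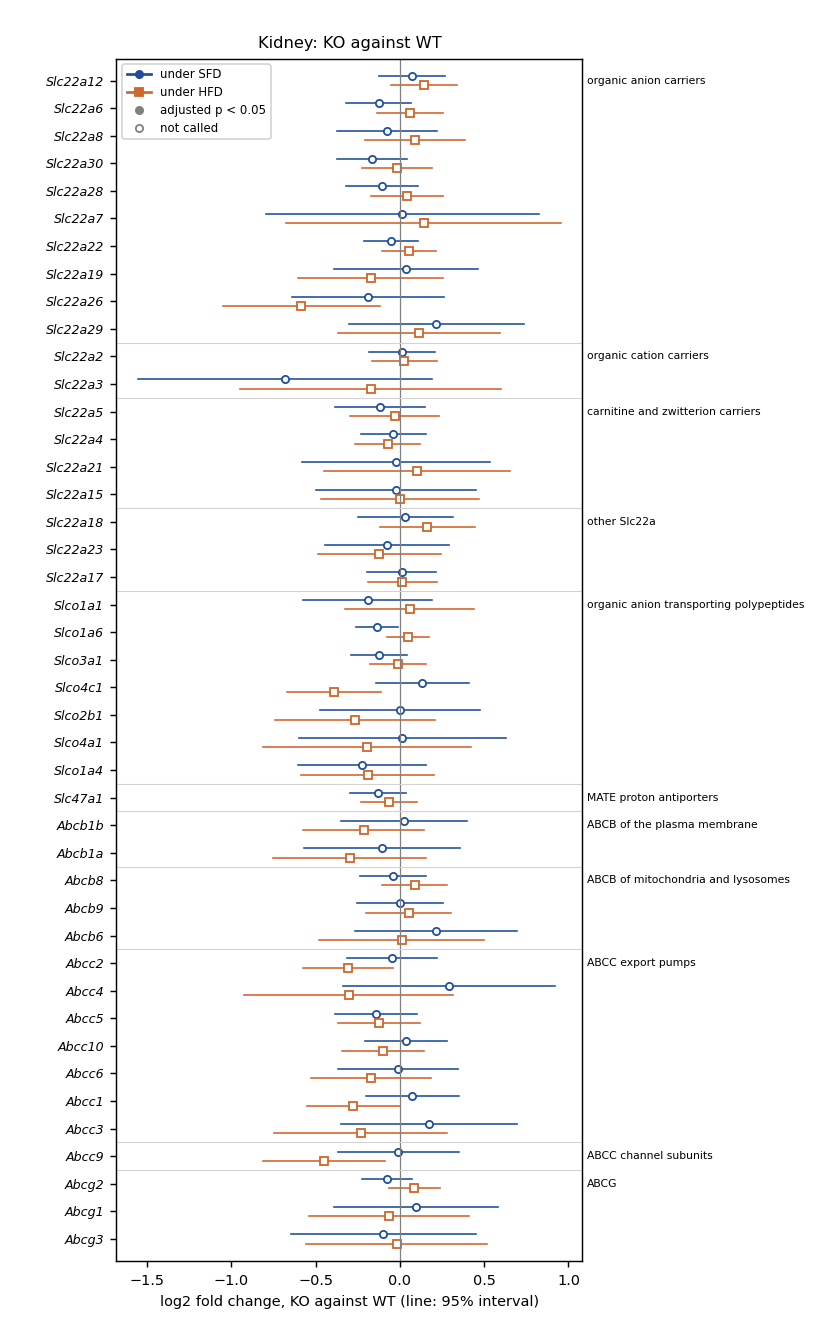
Log2 fold change of KO against WT in kidneys (horizontal axis) for the same 43 genes, under SFD (blue circles) and HFD (orange squares), with 95% intervals. No symbol is filled, since no gene passed an adjusted p of 0.05, and the intervals of most genes include 0.

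In aortas, 0 of the 29 genes passed an adjusted p of 0.05 in edgeR in any of the 7 comparisons, where 0.0132% of all genes passed for HFD in WT, 0% for HFD in KO, 0.0529% for HFD in the average, 0.0198% for KO in the average and 0% in the other 3. Slc22a3, the OCT3 gene and a carrier of monoamines, had the smallest unadjusted p for HFD, and was the single one of the 29 under 0.05 in WT, where 2.61% of all genes were, and in the average, where 6.7% were. In KO 0 of the 29 were, and 4.56% of all genes. The WT values of Slc22a3 were 6.44, 17.4, 14.6, 8.34 and 11.7 FPM under SFD and 16.3, 25.4, 21.8, 15.7 and 20.9 FPM under HFD. The KO values were 11.4, 6.30, 12.7, 11.3 and 10.4 FPM under SFD and 15.9, 10.2, 15.7, 12.1 and 16.8 FPM under HFD. The diets overlapped in both genotypes, and the change was a log2 fold change of 0.78 in WT and 0.44 in KO (standard errors 0.24 and 0.24, edgeR adjusted p = 1.00 and 0.987). In the average of the genotypes it was 0.61 on the log2 scale (standard error 0.17, unadjusted p = 0.00202, edgeR adjusted p = 0.438). The near-identical aortas R-1 and R-12 are both SFD aortas, and without them this average was 0.46 (edgeR adjusted p = 0.902). Over all aortas, 6 adipocyte markers summed to between 71.8 and 341 FPM in WT SFD and between 5.85 and 72.0 FPM in WT HFD. They summed to between 30.1 and 145 FPM in KO SFD and between 23.5 and 34.0 FPM in KO HFD. Their part in the aortic values was not tested. Of the regulators, scaffold proteins and partner carriers tested in aortas, 7, 3 and 9 genes, 0 passed in edgeR for HFD in the average.

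For KO against WT, Abcg3, a relative of Abcg2, had the smallest unadjusted p. Abcg3 counted 2.48, 1.27, 0.687, 2.29 and 1.80 FPM in WT SFD aortas and 1.46, 2.09, 0.700, 1.84 and 2.17 FPM in WT HFD aortas. It counted 2.04, 2.45, 4.0, 2.93 and 3.57 FPM in KO SFD aortas and 3.17, 2.92, 2.79, 1.39 and 2.02 FPM in KO HFD aortas. The genotypes overlapped under each diet, and the average was 0.69 on the log2 scale (standard error 0.24, unadjusted p = 0.00973, edgeR adjusted p = 0.444). Abcg1 followed, at 0.42 on the log2 scale (standard error 0.20, unadjusted p = 0.0463, edgeR adjusted p = 0.562). In that comparison 2 of the 29, and 8.78% of all genes, had an unadjusted p under 0.05. The near-identical aortas R-1 (WT) and R-12 (KO) stand on opposite sides of it. Without that pair the average was 0.81 for Abcg3 (edgeR adjusted p = 0.201) and 0.49 for Abcg1 (adjusted p = 0.422).

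In the abundant aortic members no group stood apart. SFD aortas of WT mice had 312, 277, 292, 396 and 673 FPM of Abcc9 and HFD aortas 314, 332, 307, 375 and 668 FPM. SFD aortas of KO mice had 228, 311, 453, 435 and 404 FPM and HFD aortas 304, 431, 399, 378 and 756 FPM. In each group except KO SFD 1 library stood far above the rest, R-5, R-10 and R-20, and the changes for HFD were a log2 fold change of 0.03 in WT and 0.31 in KO (standard errors 0.29 and 0.29, edgeR adjusted p = 1.00 and 0.987). In WT aortas, Slco3a1 was at 58.1, 58.8, 63.5, 63.1 and 91.8 FPM under SFD and at 62.9, 59.0, 67.1, 62.3 and 92.96 FPM under HFD. In KO aortas it was at 58.0, 58.2, 58.5, 59.3 and 69.4 FPM under SFD and at 66.3, 67.1, 60.6, 68.8 and 100.2 FPM under HFD. The highest Slco3a1 values were in the same 3 aortas and in R-15. For Abcc1 the change for HFD was a log2 fold change of 0.01 in WT and -0.04 in KO (standard errors 0.11 and 0.11, edgeR adjusted p = 1.00 and 0.987), and for Slc22a5 it was a log2 fold change of -0.09 in WT and -0.08 in KO (standard errors 0.09 and 0.09, edgeR adjusted p = 1.00 and 0.987). Of the 29 intervals for HFD, 24 in WT and 26 in KO lay within a log2 fold change of 1 in either direction.

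**Figure D5:**
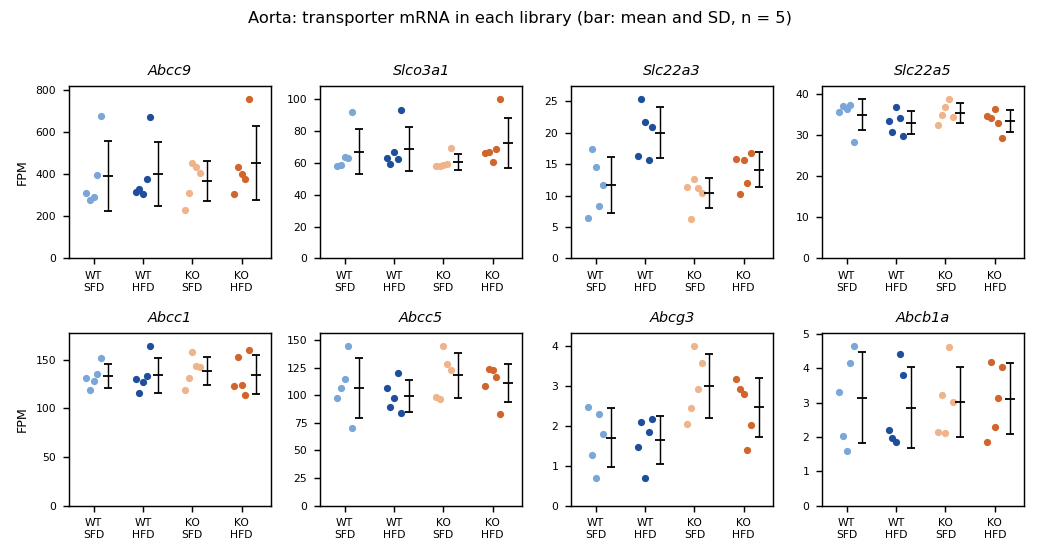
FPM (vertical axes, from 0) of 8 transporter genes in each of the 20 aortas, with points for libraries and bars for the mean and SD of 5 libraries per group. In every panel the diets overlap within each genotype and the genotypes overlap within each diet, and Abcc9 and Slco3a1 share their highest libraries.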

How the data were processed

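RNA of kidneys and aortas was sequenced in 40 libraries, 5 for each tissue, genotype and diet. The authors deposited raw read counts per gene, 1 table per tissue. Per the labels, reads were aligned to mm10 with HISAT2 2.1.0, and featureCounts was used. The strand setting and the treatment of reads that match several genes are not given in the sources used here.

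Members had a mean of at least 0.5 CPM of the total count in a tissue. Members and gene lists were chosen with earlier results of these data known. Each tissue was fitted with all 4 groups in edgeR 4.0.16 (R 4.3.3): filterByExpr, TMM, the robust quasi-likelihood F test, Benjamini-Hochberg adjustment over all genes tested and an adjusted p of 0.05. The biological coefficient of variation was 22.31% in kidneys and 28.95% in aortas. Intervals are 95%. The code was tested on simulated counts. The labels name 5 replicates per group but not from which animals they came. The paper gives N = 5 for each group and counts animals or vessels as N. The p-values measure the spread between these libraries. The near-identical pairs differed by less than the sampling noise, so the libraries of a pair are not independent. How these pairs arose is not given in the sources used here. Genes are named where called in a comparison, where among the 2 most abundant of a role, or where among the 3 with the smallest p of a comparison with few calls; others were named to complete a role. Alternatives were DESeq2 1.42.0 size factors and Wald test, no filter, the study's fold and FPM limits, the compared groups alone, a clock gene score as covariate, and leaving out single libraries or the near-identical pair. Leaving out kidneys high in immediate-early genes, or aortas high in lymphocyte genes, was chosen after seeing the data. Exon lengths, overlaps and shared 100-base stretches are from GENCODE M21 on GRCm38, and promoter windows from RefSeq on GRCm38.p6. No column of per-sample values was left without a sample. Some genes counted in the totals are not reported here by name.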

Additional observations from a re-analysis of the deposited data

Results flagged for a closer look

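In groups of 5 libraries, 16 of 224 held a value whose gap to the nearest other library was large against the range of the group by Dixon's 95% limit. Chance flags about 1 in 20 groups, which gives 11.2. Kidneys held 5 of 132 and aortas 11 of 92.

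Abcc2 was at 428.2 FPM in the KO HFD kidney a3, the highest of its group, and at 315.2 FPM in the nearest other library. The KO HFD kidney a3 was the highest of its group for Abcg2, at 562.7 FPM against 506.7 FPM in the nearest other. Slc22a28 was at 233.3 FPM in the WT HFD kidney a13, the lowest of its group, and at 257.7 FPM in the nearest other library. The WT SFD kidney a18 was the highest of its group for Slc22a6, at 1494 FPM against 1192 FPM in the nearest other. Slc22a7 was at 446.9 FPM in the WT SFD kidney a18, the highest of its group, and at 251 FPM in the nearest other library.

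Abcb9 was at 26.45 FPM in the KO SFD aorta R-11, the highest of its group, and at 21.58 FPM in the nearest other library. The KO HFD aorta R-16 was the highest of its group for Abcb9, at 29.94 FPM against 21.32 FPM in the nearest other. Abcc10 was at 6.233 FPM in the WT SFD aorta R-5, the lowest of its group, and at 8.39 FPM in the nearest other library. The KO HFD aorta R-16 was the highest of its group for Abcc8, at 1.421 FPM against 0.5845 FPM in the nearest other. Abcc9 was at 667.9 FPM in the WT HFD aorta R-10, the highest of its group, and at 374.9 FPM in the nearest other library. The KO HFD aorta R-20 was the highest of its group for Abcc9, at 756.1 FPM against 431.2 FPM in the nearest other. Slc22a5 was at 28.31 FPM in the WT SFD aorta R-5, the lowest of its group, and at 35.59 FPM in the nearest other library. The WT SFD aorta R-5 was the highest of its group for Slco3a1, at 91.78 FPM against 63.49 FPM in the nearest other. Slco3a1 was at 92.96 FPM in the WT HFD aorta R-10, the highest of its group, and at 67.06 FPM in the nearest other library. The KO SFD aorta R-15 was the highest of its group for Slco3a1, at 69.43 FPM against 59.29 FPM in the nearest other. Slco3a1 was at 100.2 FPM in the KO HFD aorta R-20, the highest of its group, and at 68.75 FPM in the nearest other library. The aortas R-5, R-10 and R-20 account for 7 of the 11, with both Abcc9 and Slco3a1 among them in R-10 and R-20, and R-16 was also the aorta with the highest lymphocyte marker sum, 84.7 FPM.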

How the results depend on the processing

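Under HFD in kidneys, the number of the 44 transporters called was 17 in WT, 14 in KO and 22 in the average. With a fold change over 1.5 and a level over 5 FPM it was 9, 8 and 9. Without the kidneys a8, a9 and a17, an alternative chosen after seeing the data, it was 16, 9 and 21. Leaving out 1 library at a time gave 12 to 18 in WT, 11 to 15 in KO and 20 to 22 in the average. DESeq2 size factors gave 17, 17 and 23, the DESeq2 Wald test 19, 18 and 24, no filter 15, 12 and 21, the clock score 17, 15 and 21, the compared groups alone 13 in WT and 16 in KO, and leaving out the near-identical pair 18, 16 and 20. In the 11 comparisons with 0 transporters called, all 243 alternatives also gave 0, although the fold and level limits among them could not have given more. Of 1881 values of single genes under alternatives, 1760 kept direction and side of the threshold, 121 lost the call and 0 changed direction. Part of this was fixed in advance. The 86 values under the fold and level limits are those of the main fit, and genes not called could not lose a call. A further 1230 values come from fits without 1 library, which share most of their libraries. Of the lost calls, 72 were in fits without 1 library and 27 under the fold and level limits, where the limits themselves remove genes, and for the others the cause was not tested. A membership limit of 1 CPM gave 43 genes in kidneys and 26 in aortas. No paired analysis was possible because the replicate labels are unique to each library and the groups share no numbers. Depth limits scarce genes such as kidney Slc22a3, with 3 to 49 counts per library.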
